A study of Mus musculus with 26 samples.

Results

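Adult intrinsically photosensitive retinal ganglion cells (ipRGCs) were collected from a pair of melanopsin reporter mouse lines, and the comparison described here is that between the 4 adult Opn4-Cre/GFP ipRGC pools and the 6 adult Opn4-GFP ipRGC pools. These 10 RNA-seq libraries are all the adult ipRGC libraries among the 26 libraries of the series, and they were chosen by cell type, age and mouse line alone. The other libraries hold GFP-negative conventional ganglion cell (cRGC) pools of both lines and pools of early postnatal Opn4-GFP mice. Of 14580 genes in the deposited table, 11441 carried values for both adult lines and could be compared. The Opn4-GFP mice (genotype Opn4-GFP+/-) carry a bacterial artificial chromosome (BAC) transgene with GFP under the control of melanopsin gene DNA, on a BL6 background. The Opn4-Cre/GFP mice (genotype Opn4-Cre+/-;Z/EG+/-) express Cre recombinase from the melanopsin locus, and Cre switches on GFP from the Z/EG transgene, on a mixed background. Mice of both lines were 27 to 33 days old. Retinal cells of many animals were pooled for each library, enriched for the surface protein Thy1 on magnetic beads and sorted for GFP, and the RNA was amplified before sequencing. The backgrounds are those of the labels, while the text of the study describes a mixed background for both lines, so whether the background differed is uncertain. Line, reporter, Cre allele and any difference of background go together between the groups and cannot be told apart. Which genes around Opn4 the BAC carries is not given in the sources used here. Replicates are separate pools, so p-values measure the spread between pools.

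Melanopsin, the product of Opn4, is the photopigment that makes ipRGCs respond to light without rods or cones. Light-activated melanopsin signals through Gq-class G proteins to phospholipase C, which opens TRPC6 and TRPC7 channels. The cells set the circadian clock and the pupil, and they fall into types named M1 to M6, of which M1 to M3 hold the most melanopsin and M4, also known as the ON alpha ganglion cell, to M6 hold less. The Opn4-GFP reporter labels M1 to M3 cells, while the Cre reporter labels M1 to M6 cells because a low level of Cre is enough to switch GFP on for good. By the study's counts, each reporter leaves part of the M1 to M3 cells without GFP. The comparison therefore asks which transcripts differ between a narrower and a broader sample of ipRGC types. In bulk pools, fewer cells of a type and less RNA per cell cannot be told apart.

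Depth differed widely among the 10 libraries. The reads on listed genes ranged from 4134285 to 34882834 in the Opn4-GFP pools and from 9482809 to 43877750 in the Opn4-Cre/GFP pools. Of the genes listed for their own line, between 18 and 1893 had no read in an Opn4-GFP pool, and between 22 and 1595 had none in an Opn4-Cre/GFP pool. Opn4-GFP pools 2 and 4 and Opn4-Cre/GFP pool 4 stood apart on multidimensional scaling and had 1169, 1893 and 1595 of these genes at 0. Pairs of pools correlated across genes with a median of 0.692 within Opn4-GFP, 0.831 within Opn4-Cre/GFP and 0.750 between the lines, so that the median between lines lay above that within Opn4-GFP. Genes are not independent replicates, and these values are a description.

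A single gene passed the test between the ipRGC pools. Ldb3, which encodes a PDZ and LIM domain protein of the muscle Z-disc, was lower in Opn4-Cre/GFP, and no gene was higher. With limma's moderated test on log2(CPM + 1), where CPM is the usual read count scaled to a common library total, and thresholds of 0.05 for the Benjamini-Hochberg adjusted p and 1 for the log2 difference, 1 of 11441 genes (0.00874%) was called. At an unadjusted p under 0.05 there were 291 genes with a higher mean in Opn4-Cre/GFP (2.54%) and 132 with a lower mean (1.15%). The edgeR quasi-likelihood test on the same reads called 0 genes in either direction, with 349 at an unadjusted p under 0.05, and DESeq2 called 1 higher (Gm11814) and 2 lower (Ldb3 and Hspa8). The share of genes above and below 0 depended on the scaling and test. The median log2 difference over all genes was 0.12 here, 0.29 without TMM scaling and -0.19 in the edgeR quasi-likelihood fit, and 56.9%, 67.6% and 40.5% of genes lay above 0. Small differences of gene groups are therefore read against the median of all genes.

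Ldb3 lies next to Opn4. In the mm9 build Opn4 spans chr14:35403804-35413328 on the minus strand, and Ldb3 follows it on the same strand at chr14:35339885-35401867, with 1937 bases between the end of Opn4 and the start of Ldb3. The 250 bases before each gene's start are shown because these neighbouring genes carry the largest line differences near the reporter's locus, with any match to GTGTGA, a core of the motif bound by T-box factors such as Eomes and Tbx20, in capitals. Both are RefSeq sequences of the GRCm38.p6 build, given on the minus strand.
Opn4, chr14:34600143-34600392: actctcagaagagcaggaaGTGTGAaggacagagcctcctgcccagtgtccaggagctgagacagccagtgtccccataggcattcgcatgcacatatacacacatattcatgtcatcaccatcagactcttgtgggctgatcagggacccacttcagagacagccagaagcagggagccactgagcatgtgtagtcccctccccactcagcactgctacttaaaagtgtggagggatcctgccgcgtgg
Ldb3, chr14:34588682-34588931: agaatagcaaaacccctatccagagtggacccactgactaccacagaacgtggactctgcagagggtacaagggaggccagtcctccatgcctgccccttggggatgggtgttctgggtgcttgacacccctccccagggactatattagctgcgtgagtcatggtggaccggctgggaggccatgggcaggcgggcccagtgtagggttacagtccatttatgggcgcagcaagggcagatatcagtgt
The Opn4 stretch held 1 match as written and 0 of the reverse complement TCACAC, and the Ldb3 stretch held 0 of either. Of 32851 promoters of this length, 12.3% held the motif on either strand, so a match is a common event and a description only.

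In the Opn4-GFP ipRGC pools Ldb3 ranged from 113.7 to 189.1 CPM with a median of 146.8 CPM and a mean of 147.7 ± 24.2 CPM (SD, n = 6). In Opn4-Cre/GFP ipRGC pools 1 to 4 it was at 9.97, 36.3, 10.2 and 6.23 CPM, a mean of 15.7 ± 13.9 CPM (SD, n = 4). Every Opn4-GFP pool lay above every Opn4-Cre/GFP pool, and the highest Opn4-Cre/GFP value, that of pool 2, was still below the lowest Opn4-GFP value. The log2 difference was -3.45 with a standard error of 0.54, and limma gave an adjusted p of 0.0427.

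The call for Ldb3 was not stable to the choice of test or of pools. Leaving out 1 pool at a time gave adjusted p-values between 0.0134, without Opn4-Cre/GFP pool 2, and 0.288, without Opn4-Cre/GFP pool 3, and the call remained in the first case only, while the log2 difference stayed between -3.93 and -3.15.

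The Ldb3 difference was wider in the GFP-negative cRGC pools. In the 6 Opn4-GFP cRGC pools Ldb3 was at 174, 1385, 302, 111, 80.2 and 205 CPM, whereas the 4 Opn4-Cre/GFP cRGC pools held 1, 2, 58 and 1 reads of the gene, or at most 2.10 CPM. The groups were far apart, and pool 3 alone supplied nearly all the reads in Opn4-Cre/GFP. In the fit over all 20 adult libraries the cRGC log2 difference was -7.35 with a standard error of 0.72 and a limma adjusted p of 3.3e-07, and the edgeR quasi-likelihood test gave an adjusted p of 0.0031. The difference of the line effects between ipRGC and cRGC pools was 3.91 on the log2 scale with an adjusted p of 0.999, so the Ldb3 difference was not shown to depend on the cell population. Early postnatal Opn4-GFP pools also held the transcript, with 1240 to 1594 reads in the ipRGC pools and 587 to 822 reads in the cRGC pools. Ldb3 reads were thus found in both sorted fractions of the Opn4-GFP line at both ages.

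**Figure D1:**
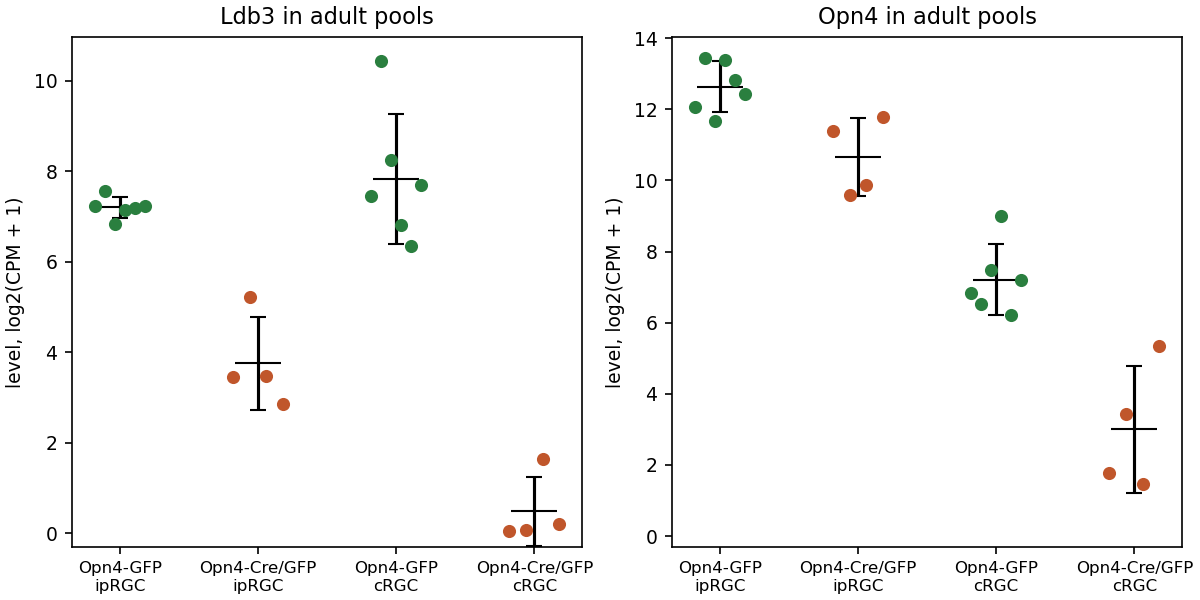
Levels of Ldb3 and Opn4 in adult pools, as log2(CPM + 1), in the 6 Opn4-GFP pools (green) and 4 Opn4-Cre/GFP pools (orange) of each cell population. Points are pools, and the black bar and whiskers are the mean and SD of the plotted values. For Ldb3 the lines do not overlap in either population, and for Opn4 the ipRGC groups overlap while the cRGC groups do not.

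Opn4 itself was at 3261 to 11047 CPM in the Opn4-GFP ipRGC pools, with a median of 6395 CPM, and at 2699, 772, 931 and 3538 CPM in Opn4-Cre/GFP pools 1 to 4. The groups overlapped narrowly, since Opn4-Cre/GFP pool 4 lay above the lowest Opn4-GFP pool. The means were 7029 ± 3286 CPM (SD, n = 6) and 1985 ± 1354 CPM (SD, n = 4). The log2 difference of -1.98 with a standard error of 0.42 did not pass the test, with a limma adjusted p of 0.266, and an exact permutation test of this gene alone gave p = 0.0190, two-sided. The Opn4-Cre/GFP mice carry Cre on 1 Opn4 copy, and the broader reporter takes in cells with less melanopsin. The parts of these and of other line differences, the Opn4-GFP transgene included, cannot be told apart.

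Opn4 reads in the GFP-negative pools did pass the test. The study states that ipRGCs without GFP would have been sorted into these pools in both lines, and their part in this difference was not tested. They were at 72.8 to 513 CPM in the Opn4-GFP cRGC pools and at 2.42, 9.87, 1.77 and 39.7 CPM in the Opn4-Cre/GFP cRGC pools, without overlap. Opn4 was lower by 4.21 on the log2 scale (log2 difference -4.21, limma adjusted p of 0.00079), though the edgeR quasi-likelihood test did not call it. Opn4, Ldb3 and Golga7b were the genes called in the cRGC pools, 3 of 11441 (0.0262%), all lower in Opn4-Cre/GFP. Golga7b, named for this call, was at 33.8 to 145 CPM in the Opn4-GFP ipRGC pools and at 15.6, 25.6, 14.6 and 9.67 CPM in the Opn4-Cre/GFP ipRGC pools, again without overlap, with log2 differences of -1.80 in ipRGC pools (adjusted p of 0.999) and -4.88 in cRGC pools (adjusted p of 0.00595).

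The proportion of Ldb3 to Opn4 reads overlapped between the lines in ipRGC pools and differed in most cRGC pools. In ipRGC pools there were 1.30 to 3.49 Ldb3 reads per 100 Opn4 reads in Opn4-GFP, and 0.369, 4.70, 1.09 and 0.176 in Opn4-Cre/GFP pools 1 to 4, a range that encloses the former. In cRGC pools the ratio was 21.5 to 1514 in Opn4-GFP and 1.23, 0.431, 118 and 0.366 in Opn4-Cre/GFP, where pools 1, 2 and 4 lay within the ipRGC range of their line and pool 3, with 58 Ldb3 and 49 Opn4 reads, lay within the Opn4-GFP cRGC range. Thus Ldb3 did not follow Opn4 in fixed proportion between the sorted fractions of the Opn4-GFP line.

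Other genes near Opn4 did not pass the test. Of 12 tested genes within 1 Mb, the 10 other than Opn4 and Ldb3 had ipRGC log2 differences between -0.76 (Zfp488) and 0.89 (Bmpr1a), each with an adjusted p of 0.999. Wapl, the neighbour on the other side at 73.8 kb, was at -0.50, and Bmpr1a, which encodes a BMP receptor and lies 87.3 kb away, was at 0.89. Sncg, which encodes the ganglion cell protein gamma-synuclein, had means of 551 and 732 CPM in Opn4-GFP and Opn4-Cre/GFP and a log2 difference of 0.25. In cRGC pools the same 10 genes had log2 differences between -2.07 (Grid1) and 1.59 (Sncg), and neither passed the test (adjusted p of 0.963 for both). In ipRGC pools the differences beyond 1 in size were those of Opn4 and Ldb3.

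**Figure D2:**
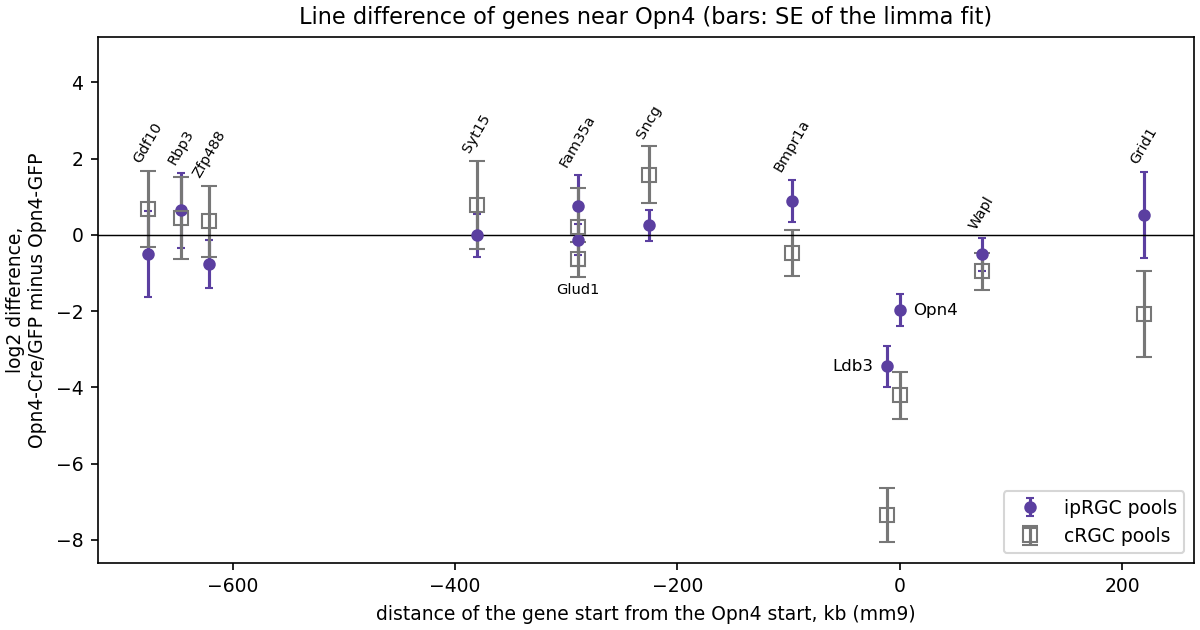
Line difference (log2, Opn4-Cre/GFP minus Opn4-GFP) of the 12 tested genes within 1 Mb of Opn4 against the distance of their start from the Opn4 start in kb, for ipRGC pools (filled circles) and cRGC pools (open squares), with the standard error of the limma fit. Ldb3 and Opn4 lie at -3.45 and -1.98 in ipRGC pools and at -7.35 and -4.21 in cRGC pools, and those of the other genes lie between -0.76 and 0.89 in ipRGC pools and between -2.07 and 1.59 in cRGC pools.

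Since fewer than 10 genes were called, the 10 genes with the smallest p in each direction were examined. Those with higher means in Opn4-Cre/GFP were transcripts near the limit of detection in the Opn4-GFP ipRGC pools. Galnt15, Msn, 4930485B16Rik, Arrdc1, Lhpp, Cdh6, Adgra3, Gm11814, Fbn2 and Amotl2 had Opn4-GFP means of 0.440 to 2.99 CPM and Opn4-Cre/GFP means of 6.06 to 58.4 CPM. The groups did not overlap for any of the 10, against 0.656% of all genes that did not overlap in this direction, which is what picking the smallest p-values favours. In 9 of the 10 at least 1 Opn4-GFP ipRGC pool held no read. The log2 differences of the 10 were 2.45 to 4.83, with limma adjusted p-values of 0.266 to 0.967. Listing for Opn4-GFP needed 1 CPM in at least 6 of 12 libraries, cRGC pools included. Adgra3, Arrdc1, Fbn2, Amotl2 and 4930485B16Rik each passed 1 CPM in a single ipRGC pool of that line. Galnt15, Lhpp, Msn and Cdh6 passed it in fewer than 6 ipRGC pools. The listing of all these genes thus rested at least in part on the cRGC pools.

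Galnt15, which encodes a glycosyltransferase that starts O-linked glycans, was at 74.6, 42.6, 64.7 and 51.7 CPM in Opn4-Cre/GFP pools 1 to 4. In Opn4-GFP it had no read in 2 pools, a median of 0.147 CPM and a highest value of 15.1 CPM, in pool 6. The log2 difference was 4.83 with a standard error of 0.93 and an adjusted p of 0.266. Galnt15 is on the same chromosome as Opn4, at chr14:32842175-32875383 (mm9), 2.53 Mb away. Of the 20 genes examined, 3 lie on that chromosome, Opn4 and Ldb3 included, beside 391 of all 11441 genes tested.

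Msn, which encodes moesin, a linker of the actin cortex to the cell membrane, was at 24.0, 13.4, 14.9 and 16.3 CPM in Opn4-Cre/GFP and at no more than 1.72 CPM in any Opn4-GFP pool. Cdh6, which encodes a classical cadherin found on subsets of ganglion cells, was at 31.4, 18.4, 22.3 and 10.2 CPM against 0 to 4.71 CPM. Both genes were thus present in every Opn4-Cre/GFP pool, and their log2 differences were 3.41 (adjusted p of 0.266) and 3.44 (adjusted p of 0.463). Fbn2, which encodes the matrix protein fibrillin-2, was at 61.6 CPM in Opn4-Cre/GFP pool 4 and at 3.48 to 6.51 CPM in the others, so its mean of 19.0 CPM rests on that pool.

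Gm11814, an annotated pseudogene whose reads may be shared with its source gene, stood out by its evenness. It lay between 1.03 and 1.41 CPM in all 6 Opn4-GFP pools and at 15.6, 9.98, 15.1 and 15.9 CPM in the Opn4-Cre/GFP pools. A like difference was present in the cRGC pools, where the log2 difference was 2.45 against 2.77 in the ipRGC pools. The protein-coding gene 4930485B16Rik, known by its clone name, also differed in both populations, by 3.35 in ipRGC pools and 2.92 in cRGC pools. Lhpp overlaps Fgfr2 on the other strand and the library kit does not mark strand, so reads of the pair cannot be told apart.

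The 10 genes with lower means in Opn4-Cre/GFP were well expressed in Opn4-GFP. They were Ldb3, Hspa8, Opn4, A730008H23Rik, Pde3a, Eif4ebp2, Slc6a5, Pcgf2, Map2k7 and Zfp467, with Opn4-GFP means from 90.8 CPM upwards and log2 differences of -3.48 to -1.27. The groups did not overlap for 5 of them, against 0.332% of all genes. Hspa8, which encodes the constitutive heat shock cognate chaperone Hsc70, was at 167 to 271 CPM in Opn4-GFP with a median of 180.0 CPM, and at 62.8, 30.5, 52.4 and 59.4 CPM in Opn4-Cre/GFP. Its log2 difference was -1.94 with a standard error of 0.40 and an adjusted p of 0.266. In cRGC pools the Hspa8 difference was -2.05, so both populations gave a like value. Hspa8 has processed pseudogenes that can take some of its reads.

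Pde3a, which encodes a cyclic nucleotide phosphodiesterase, was at 94.0 to 316 CPM in Opn4-GFP and at 24.9, 121, 51.2 and 1.22 CPM in Opn4-Cre/GFP, where pools 2 and 4 lay far apart. Slc6a5, which encodes the neuronal glycine transporter GlyT2, was at 13.2 to 220 CPM in Opn4-GFP and at 0.162, 28.6, 27.8 and 0.334 CPM in Opn4-Cre/GFP. Neither group pair was free of overlap. Eif4ebp2, which encodes a repressor of cap-dependent translation, had means of 247 and 51.9 CPM and a value of 2.001 CPM in Opn4-Cre/GFP pool 4. Map2k7, a kinase of the JNK pathway, had means of 232 ± 82.9 CPM (SD, n = 6) and 93.9 ± 22.6 CPM (SD, n = 4) and a log2 difference of -1.27, with an adjusted p of 0.999. A730008H23Rik overlaps Mroh2a on the other strand and its reads are uncertain for the same reason as those of Lhpp.

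**Figure D3:**
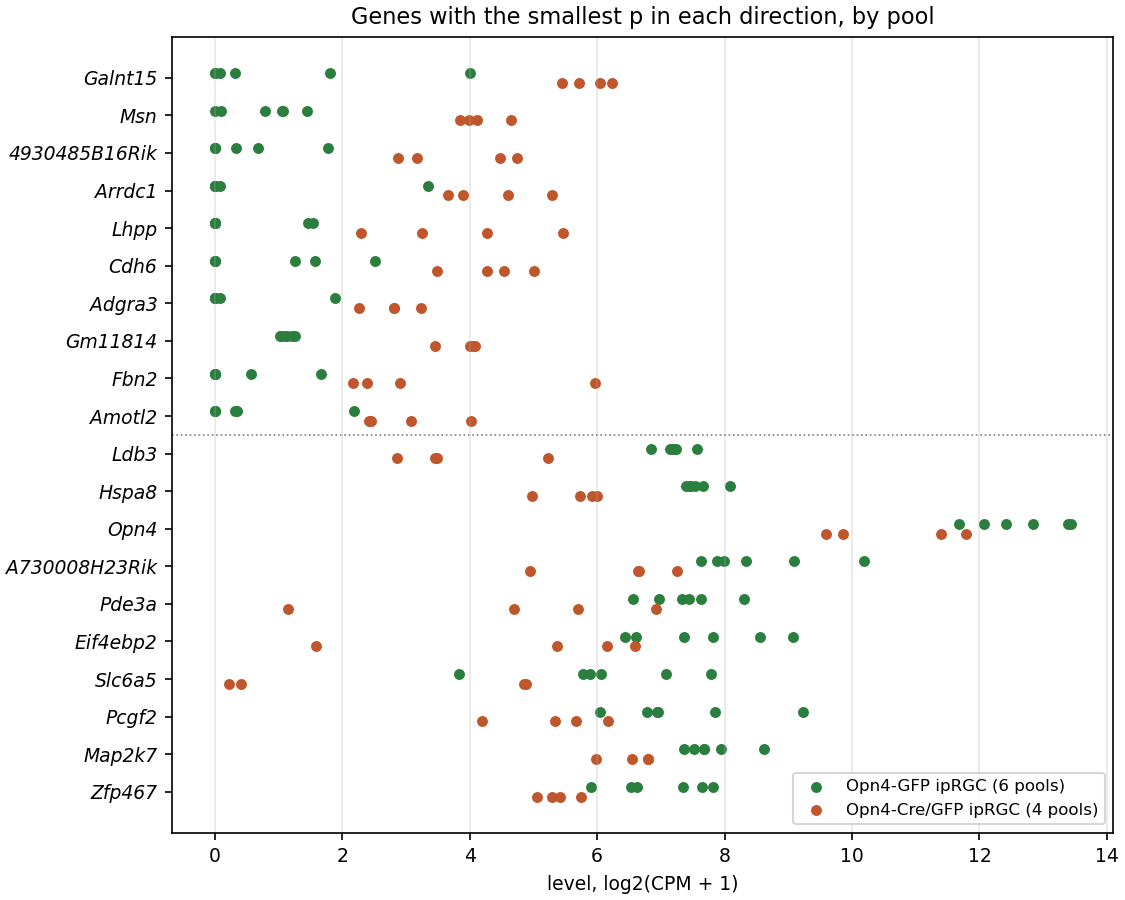
Levels, as log2(CPM + 1), of the 10 genes with the smallest p among those higher (above the dotted line) and lower (below it) in Opn4-Cre/GFP, 1 point per ipRGC pool. The upper 10 lie near 0 in most Opn4-GFP pools (green) and do not overlap with the Opn4-Cre/GFP pools (orange), and 5 of the lower 10 do not overlap.

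The cRGC pools gave the same sign of difference for 6 of the 10 upper and 9 of the 10 lower genes. They came from the same animals as the ipRGC pools, so these signs are not an independent second look. At an unadjusted p under 0.05 the cRGC pools showed 4930485B16Rik and Gm11814 among the former and Ldb3, Opn4 and Hspa8 among the latter, 5 of 20 genes, and each in the direction of the ipRGC pools. For the others, including Galnt15, Msn and Cdh6, the cRGC pools gave no such p.

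A test of whether the line difference itself differed between ipRGC and cRGC pools called 0 of 11441 genes with limma, with 272 at an unadjusted p under 0.05. With edgeR it called 0, with 272 at that level too. In the limma fit that paired the ipRGC and cRGC pools of a number it called 0, with 337 at that level. Deptor, which encodes an inhibitor of mTOR, was at 35.4, 56.2, 31.8 and 184 CPM in Opn4-Cre/GFP ipRGC pools and at 0.918 to 15.04 CPM in Opn4-GFP, without overlap, while the cRGC log2 difference was -1.12. Abhd3, which encodes a phospholipase, was at 3.22, 3.498, 3.84 and 0.111 CPM against 5.30 to 242 CPM, with a cRGC difference of 2.11. These genes had the smallest interaction p-values together with Ldb3, Galnt15 and Eif4ebp2, and the adjusted p was 0.999 for each.

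Genes of the melanopsin signalling cascade lay evenly on both sides of 0, with Opn4 the lowest. Of 18 tested members none was called, 0 were higher and 2 lower at an unadjusted p under 0.05 (against 2.54% and 1.15% of all genes), and the median log2 difference was -0.03 against 0.12 for all genes, with 9 members above and 9 below 0. The members below that p were Opn4 and Rasgrp1, which encodes a Ras activator gated by diacylglycerol.

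Gnaq, which encodes the G protein subunit downstream of melanopsin, was at 185 to 545 CPM in Opn4-GFP and at 240, 254, 317 and 160 CPM in Opn4-Cre/GFP. Plcb4, the phospholipase C of the pathway, had means of 588 ± 295 CPM (SD, n = 6) and 478 ± 89.99 CPM (SD, n = 4). The related subunits Gna11 and Gna14 and the beta subunit Gnb1 had log2 differences of 0.28, -0.22 and -0.24. None of these differences was larger than the spread between pools.

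Trpc7, which encodes a channel subunit opened by the cascade, varied among pools of either line, from 42.1 to 498 CPM in Opn4-GFP and from 34.9 to 285 CPM in Opn4-Cre/GFP. Its means of 178 and 159 CPM gave a log2 difference of 0.01. Trpc6 had means of 27.1 and 13.9 CPM and a log2 difference of -0.63 with a standard error of 0.90, so a sizeable difference in either direction cannot be told from the spread.

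Plcb1, a second phospholipase C, had a mean of 32.4 CPM in Opn4-GFP and of 98.6 CPM in Opn4-Cre/GFP, with 238 CPM in Opn4-Cre/GFP pool 4, and a log2 difference of 1.51. Rasgrp1 was at 382 to 1235 CPM in Opn4-GFP and at 579, 314, 408 and 197 CPM in Opn4-Cre/GFP, with overlap and a log2 difference of -0.83. Of the regulators, Rgs4 and Rgs17, which speed the shut-off of G proteins, were at 0.21 and 0.03. The arrestin genes Arrb1 and Arrb2 were at 0.20 and 0.93, the protein kinase C genes Prkcd and Prkcq at 0.20 and 0.07, the diacylglycerol kinase gene Dgkg at -0.96 and the G protein gamma gene Gng4 at -0.07. All had an adjusted p of 0.999.

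Among 34 tested genes known from ipRGCs none was called, and 2 were higher and 2 lower at an unadjusted p under 0.05, with a median of 0.00 (17 above and 17 below 0). In this and the following groups, members named for such a p were chosen after their values were seen, and none had an adjusted p under 0.05 unless it is said. Counts at that level are to be read beside the shares of all genes, 2.54% higher and 1.15% lower. Eomes, the T-box factor that ipRGCs need for their development, was at 818 ± 646 CPM (SD, n = 6) in Opn4-GFP and 484 ± 192 CPM (SD, n = 4) in Opn4-Cre/GFP, a log2 difference of -0.50. Tbx20, another T-box factor, was at -0.23, Adcyap1, which encodes the ipRGC neuropeptide PACAP, at -0.01, and Igf1, which encodes a growth factor, at 0.63. The markers that define the population thus overlapped between the lines.

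Gldn, which encodes gliomedin, an adhesion protein best known from nodes of Ranvier, was at 254, 115, 261 and 504 CPM in Opn4-Cre/GFP and between 30.8 and 122 CPM in Opn4-GFP. Hs6st2, which encodes a heparan sulfate sulfotransferase, had means of 55.5 and 18.1 CPM in the same order. Their log2 differences were 1.78 and 1.82, and both groups overlapped between the lines.

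Genes associated with alpha ganglion cells, the class to which M4 cells belong, were compared because only the Cre reporter labels M4 cells. Of 6 fixed genes 4 were tested, none was called and the median was 0.02. Spp1, which encodes osteopontin, was at 52.6 CPM in Opn4-GFP and 33.0 CPM in Opn4-Cre/GFP, and the neurofilament genes Nefh, Nefm and Nefl had log2 differences of 0.05, 0.19 and -0.01. Kcng4 and Pvalb were listed for Opn4-Cre/GFP alone, with ipRGC means of 6.37 and 2.94 CPM beside cRGC means of 9.27 and 2.14 CPM.

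Of 17 tested ganglion cell transcription factors 2 were higher at an unadjusted p under 0.05 and 0 lower. Over all genes the shares were 2.54% and 1.15%. Pou4f2 (Brn3b), which distinguishes ipRGC populations by their brain targets, was at 163, 141, 189 and 207 CPM in Opn4-Cre/GFP and between 33.6 and 154 CPM in Opn4-GFP, a log2 difference of 1.12. Irx5 had means of 15.7 and 4.87 CPM in the same order. Ebf3, the most abundant uncalled member, was at 1344 CPM in Opn4-GFP and 969 CPM in Opn4-Cre/GFP and overlapped.

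Among 17 tested neuropeptide and growth factor genes 2 were higher and 0 lower at that level, and both were free of overlap. All genes had 2.54% higher and 1.15% lower at that level, and 0.656% higher without overlap. Vegfa, which encodes the main angiogenic growth factor, was at 111, 109, 107 and 294 CPM in Opn4-Cre/GFP and at 8.76 to 99.1 CPM in Opn4-GFP. Fgf1, which encodes acidic fibroblast growth factor, was at 333, 601, 759 and 399 CPM against 222 to 307 CPM. Each Opn4-Cre/GFP pool lay above each Opn4-GFP pool for both genes, and the log2 differences were 1.72 and 0.85. In cRGC pools the differences were -0.04 and -0.12. Fgf1 overlaps Arhgap26 on the other strand.

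Glutamate receptor genes lay on both sides of 0. Of 24 tested, 2 were higher and 3 lower at an unadjusted p under 0.05 (2.54% and 1.15% of all genes), with a median of -0.22. Grik4, which encodes a kainate receptor subunit, was at 24.2, 25.2, 20.4 and 23.9 CPM in Opn4-Cre/GFP and at 0 to 16.2 CPM in Opn4-GFP, without overlap. The AMPA receptor genes Gria3 and Gria1 had log2 differences of -2.24 and -1.23, and in Opn4-Cre/GFP pool 4 they were at 2.56 and 14.0 CPM, the lowest of the 10 pools. Grik5, which encodes another kainate receptor subunit, was at -1.28. The most abundant members, Gria2 and Gria4, were at -0.45 and -0.61.

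Other receptor genes gave 1 such p. None of 19 tested GABA and glycine receptor genes was under 0.05 before adjustment, with a median of -0.23. Of 8 nicotinic receptor genes, Chrna6 was higher at that level, with means of 173 CPM in Opn4-Cre/GFP and 85.8 CPM in Opn4-GFP, and the median was 0.71 with 6 of 8 above 0, a median that ranged from 0.02 to 1.07 over all 26 fits with up to 4 of 8 below 0.

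Voltage-gated channel genes with an unadjusted p under 0.05 were all lower in Opn4-Cre/GFP, where the share of all genes lower at that level was 1.15%. Of 26 potassium channel genes 0 were higher and 2 lower at an unadjusted p under 0.05, with a median of -0.09, and of 32 sodium and calcium channel genes 0 were higher and 2 lower, with a median of -0.14. Cacna1i, which encodes a T-type calcium channel, was at 68.8, 63.6, 47.0 and 2.56 CPM in Opn4-Cre/GFP and at 77.4 to 221 CPM in Opn4-GFP, without overlap, a log2 difference of -2.12. Kcnh2, which encodes an ERG potassium channel, had means of 177 and 432 CPM in that order. Of the 8 HCN and two-pore potassium channel genes tested none was under 0.05, and Hcn3, which encodes a hyperpolarization-activated channel, was at -0.08.

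Of 48 cadherin and protocadherin genes 3 were higher and 4 lower at an unadjusted p under 0.05 (2.54% and 1.15% of all genes). Their median was 0.10 (28 above and 20 below 0). Cdh8 and Pcdhb4 had log2 differences of 2.01 and 2.11 beside the 3.44 of Cdh6, and Pcdh8, Cdh10, Pcdh7 and Cdh7 had -2.16, -1.79, -1.33 and -1.28. Cdh6 was the member free of overlap, against 0.656% of all genes in that direction.

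Genes of axon and synapse recognition with such a p were likewise lower, against the same 1.15% of all genes. Of 27 semaphorin and plexin genes 0 were higher and 3 lower, namely Sema6a, Plxna4 and Plxna2 at -0.98, -1.61 and -1.05, and the median was -0.01. Of 7 neurexin, neurexophilin and neuroligin genes 2 were lower, Nrxn3 and Nrxn2, at -0.84 and -0.83. No ephrin or Eph receptor gene of 16 was under 0.05. Of 8 retinoid genes, Rxra, which encodes a retinoid X receptor, was higher at 2.51, with Opn4-GFP values from 0.439 to 63.9 CPM that overlapped, and the median was 0.88 with 7 of 8 above 0, against 4 of 8 in the edgeR and DESeq2 fits.

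**Figure D4:**
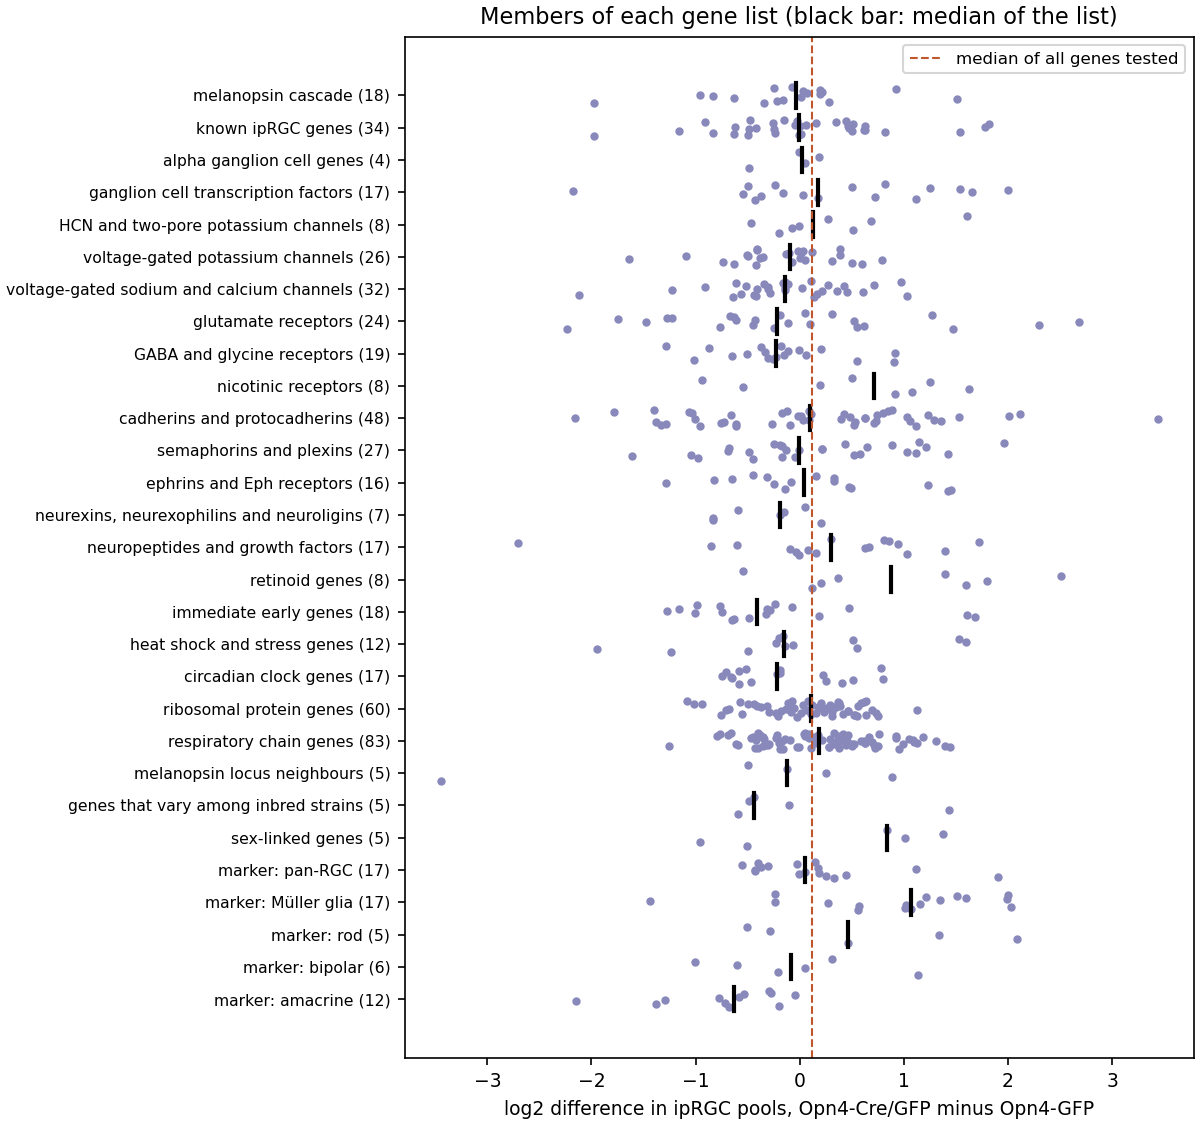
Log2 difference between the ipRGC pools of the lines for each tested member of the gene lists with 4 or more tested members. Each point is a gene, black bars are the list medians, the number of tested genes is in parentheses, and the dashed line is the median of all genes, 0.12. The medians farthest above it are those of Müller glia markers (1.06), retinoid genes (0.88), sex-linked genes (0.83) and nicotinic receptors (0.71), and the farthest below is that of amacrine markers (-0.63).

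Housekeeping and activity genes were compared as well. None of 18 immediate early genes (median -0.41), 17 circadian clock genes (median -0.22), 60 ribosomal protein genes (median 0.11) or 83 respiratory chain genes (median 0.18) was under 0.05 before adjustment. Among 12 heat shock and stress genes Hspa8 was lower and Gadd45a higher at that level, with Gadd45a at 1.53, beside 1.15% and 2.54% of all genes. Egr1, an immediate early gene that rises when cells are handled or excited, was at 713 ± 176 CPM (SD, n = 6) and 593 ± 245 CPM (SD, n = 4). The Y-linked and X-linked genes, tested because pools may hold both sexes, had log2 differences from -0.96 to 1.38 and none was under 0.05, nor was any of 5 genes that vary among inbred strains.

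Markers of ganglion cells and of other retinal cells were summed in each ipRGC pool, in CPM without TMM scaling. Ganglion cell markers summed to 6656 to 8386 CPM in Opn4-GFP and to 6155 to 9981 CPM in Opn4-Cre/GFP, above the 878 to 3095 CPM of the cRGC pools. Of 17 such markers tested, Rbpms2 and Pou4f2 were higher at an unadjusted p under 0.05 and the median was 0.05. Müller glia markers summed to 760 to 1874 CPM and 975 to 1780 CPM, far below the 11361 to 48252 CPM of the cRGC pools. Every cRGC pool thus held more Müller glia than ganglion cell marker reads, and the cRGC values given here are those of GFP-negative pools that hold other cells as well. Of 17 tested Müller glia markers 3 were higher (Apoe, Kcnj10 and Abca8a) and 1 lower (Car2), with a median of 1.06, and the higher ones had means of 9.55 to 19.6 CPM in Opn4-Cre/GFP. That median lay between -0.08 and 1.58 over all 26 fits.

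Amacrine markers were the group that lay most evenly to one side. All 12 tested had a log2 difference below 0, with a median of -0.63, and Slc6a9, Tfap2a and Tfap2b were lower at an unadjusted p under 0.05. Tfap2a, which encodes an amacrine transcription factor, was at 69.9 to 180 CPM in Opn4-GFP and at 28.6, 73.2, 53.1 and 3.78 CPM in Opn4-Cre/GFP. Slc6a9, which encodes the glycine transporter GlyT1 of glycinergic amacrine cells, had means of 158 and 73.0 CPM, and Slc6a5, one of the 10 lower genes above, encodes the other glycine transporter. The amacrine sum was 1764 to 3476 CPM in Opn4-GFP and 1528 to 2514 CPM in Opn4-Cre/GFP, which overlapped. In cRGC pools the median log2 difference of the same markers was -0.54, against 0.19 for all genes. Without TMM scaling, and without the libraries of 1 recorded run, 10 of the 12 lay below 0, and relative to the median of all genes the list's median was between -1.08 and -0.54 over all 26 fits. The part of amacrine cells in the gene differences above was not tested.

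Photoreceptor reads set Opn4-Cre/GFP pool 4 apart. The 5 tested rod markers summed to 11.2 to 116 CPM in the Opn4-GFP pools and to 47.9, 57.0, 78.6 and 318 CPM in Opn4-Cre/GFP pools 1 to 4. Gnat1, the rod transducin gene, was at 278 CPM in pool 4 and at no more than 5.82 CPM in any other pool. Cngb1, also among them, was at 7.59 to 101 CPM in Opn4-GFP and at 45.1, 29.5, 26.9 and 7.12 CPM in Opn4-Cre/GFP. The study found Cngb1 higher in ipRGCs from few reads in a limited region, possibly falsely, so the sums are not rod reads alone. Vascular markers summed to at most 52.1 CPM in any ipRGC pool. No microglia or pigment epithelium marker of the fixed lists was listed in both tables. Pool 4 was also the pool in which Pde3a, Eif4ebp2 and Cacna1i had their lowest values, and without it their log2 differences were -1.60, -1.61 and -1.10 in place of -2.75, -2.72 and -2.12.

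Genes listed for only 1 of the lines could not be tested, since a gene is listed in a line only if it reached 1 CPM in enough of its libraries, at least 6 of 12 for Opn4-GFP and at least 4 of 8 for Opn4-Cre/GFP. There were 1916 genes listed for Opn4-Cre/GFP alone and 146 for Opn4-GFP alone. Their levels are CPM of the TMM library sizes set on the genes listed for both adult lines, over all adult libraries. Of the 1916 and 146 genes, 222 and 19 had an ipRGC mean at least 4 times their cRGC mean. An unlisted gene may still have had reads, so these are descriptions of 1 line.

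Of 9 genes that the study had picked as reporter-dependent, 8 were listed for Opn4-Cre/GFP alone and 1, Nxph3, for Opn4-GFP alone. The study chose them on these samples, so they are not independent evidence. Its text names Nxph1 for Opn4-GFP and Nxph3 for Opn4-Cre/GFP, the other way round from this listing. It gives Kcns3 as short of statistical significance. Rbp4, which encodes a retinol carrier, was at 5.002, 2.16, 2.90 and 179 CPM in Opn4-Cre/GFP pools 1 to 4, and its cRGC mean was 0.04 CPM. Anxa2, which encodes annexin A2, was at 5.37, 5.88, 3.35 and 21.3 CPM, and Gem, which encodes a small GTPase that restrains calcium channels, at 6.16, 10.7, 8.29 and 48.4 CPM. Sema3d was at 2.96, 2.73, 3.49 and 28.4 CPM. For each of these the 4 ipRGC pools lay above the cRGC mean and pool 4 was several times the others.

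Rxrg, which encodes a retinoid X receptor, was at 1.30, 26.8, 1.09 and 23.4 CPM, high in pools 2 and 4. Kcnk4, which encodes a two-pore potassium channel, was at 1.54, 4.72, 3.49 and 29.4 CPM. Kcns3 and Nxph1 had the opposite order, at 15.1, 4.30, 11.4 and 0.209 CPM and at 25.4, 7.03, 19.9 and 3.44 CPM, with the lowest value in pool 4. Nxph3 was at 0.609 to 89.4 CPM in the Opn4-GFP pools, with the highest value in pool 4 of that line. The level of each of these genes thus depended strongly on the pool.

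**Figure D5:**
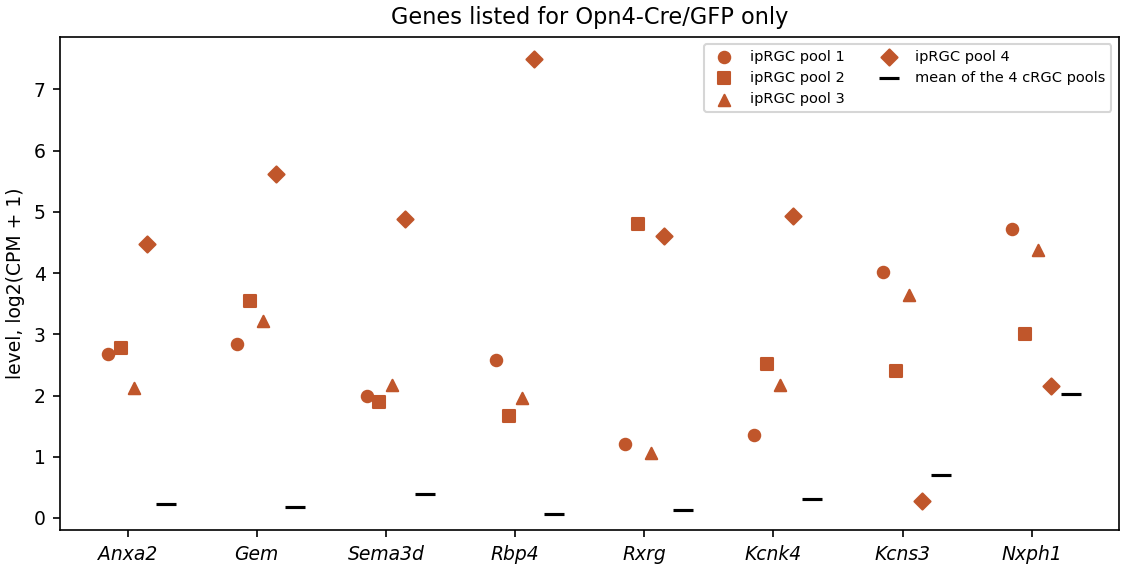
Levels, as log2(CPM + 1), of the 8 genes picked by the study and listed for Opn4-Cre/GFP alone, in the 4 ipRGC pools (markers by pool) and as the mean of the 4 cRGC pools (black dash). Pool 4 is the highest for Anxa2, Gem, Sema3d, Rbp4 and Kcnk4 and the lowest for Kcns3 and Nxph1.

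Other genes listed for Opn4-Cre/GFP alone varied in the same way. The 10 highest ipRGC means were taken among genes with an ipRGC mean at least 4 times their cRGC mean, a choice that favours low cRGC means. Of these genes, 4930427A07Rik, Tmem86b, Trp53i13, Hmox1, Stk17b, Ap5b1 and Vars2 had their level mainly from pool 4. They were at 82.0 to 229 CPM there and at no more than 11.8 CPM in the other pools. Of 8 rod and cone markers listed for Opn4-Cre/GFP alone, Prph2 at 117 CPM, Arr3 at 129 CPM, Opn1mw, Pde6a, Pde6g and Gnat2 were highest in that pool, while Rp1 and Pde6c had no read there. Prph, which encodes the intermediate filament peripherin, and Mapk11, a p38 kinase, were present in every pool. Prph was at 17.97, 26.3, 12.5 and 65.4 CPM with a cRGC mean of 0.02 CPM, and Mapk11 at 24.4, 26.4, 27.2 and 34.4 CPM with a cRGC mean of 5.14 CPM.

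The genes listed for Opn4-GFP alone, chosen by the same rule, varied as widely among pools. Oxtr, which encodes the oxytocin receptor, had the highest mean, with no read in pool 5 and 172 CPM in pool 2. Umodl1 and Spdya were at 136 and 87.5 CPM in pool 2 and at no more than 3.67 CPM elsewhere, and Bmper was at 85.1 CPM in pool 4. Ikzf3, which encodes the transcription factor Aiolos, had reads in all 6 pools, from 2.54 to 39.3 CPM, and a cRGC mean of 0 CPM. Samd12, Vmn1r90, Adamts3 and Snrnp25 had means of 41.7, 28.9, 14.2 and 11.8 CPM.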

How the data were processed

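Deposited values were gene signals per library, which the authors made by trimming, aligning to mm9 (TopHat2) and counting per gene (HTSeq), then scaling to CPM of the TMM library size and filtering low genes in edgeR, separately for each line and age. No source used here gives their versions. In every column 100% of values were whole multiples of 1 read (within 0.01), so whole reads were recovered, and genes listed for both adult lines were scaled together by TMM. All columns were matched to samples. limma 3.58.1 (trend) was fitted to log2(CPM + 1), over 10 ipRGC libraries, or over all 20 adult libraries for the cRGC and interaction contrasts (the planned wording of 18 was a miscount). edgeR 4.0.16 quasi-likelihood and DESeq2 1.42.0 tests on the recovered reads, other scalings, pseudocounts, filters, library weights, runs and left-out pools were alternatives. A log2 difference on this scale understates the change of low genes. Called genes passed an adjusted p of 0.05 and a log2 difference of 1. Named are the 10 smallest p in each direction, the 5 smallest interaction p, and up to 4 called and 2 abundant uncalled genes per list. All members of the cascade, of the study's picks and of the locus are also named. From each single table come the 10 highest ipRGC means among genes at least 4 times their cRGC mean. Members, lists and rules were chosen with earlier results of these data known. Same-numbered pools of the lines did not deviate together.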

Additional observations from a re-analysis of the deposited data

Results flagged for a closer look

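In groups of 4 to 6 pools, 123 sets of values were checked for a pool far from the others (a gap beyond the 95% limit of Dixon's ratio, on the log2 scale for genes and the linear scale for library measures), and 14 were marked, where chance marks about 1 in 20. For Opn4-Cre/GFP pool 4 these were 1595 listed genes at 0, a rod marker sum of 318 CPM, Rbp4 at 179 CPM, Sema3d at 28.4 CPM and Abhd3 at 0.111 CPM. Gm11814 was at 9.98 CPM in Opn4-Cre/GFP pool 2, below the other 3 pools. Among Opn4-GFP pools, Arrdc1, Adgra3 and Amotl2 were at 9.21, 2.70 and 3.54 CPM in pool 1, above the others, and Fbn2 was at 2.16 CPM in pool 5. Gnb1 was at 2522 CPM and Deptor at 0.918 CPM in pool 2, and Glud1 was at 561 CPM and Gna11 at 3.46 CPM in pool 4.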

How the results depend on the processing

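Ldb3 was the only gene called lower. That count was 0 with the edgeR quasi-likelihood test, without TMM scaling, with a pseudocount of 0.25 CPM, without libraries of 1 recorded run, with a single run as a covariate, with the replicate block, in the fit of all 20 adult libraries, without libraries with over 500 genes at 0 and without the pool with the highest rod sum. It was 2 with DESeq2 and 3 with library weights, and 0 to 1 when each pool was left out. Genes called higher numbered 1 with DESeq2 and 5 with library weights. The cause was not tested. Ldb3 kept its direction in every fit, from -3.93 to -2.78, with adjusted p-values of 3.4e-06 (DESeq2) to 0.973 (without libraries of 1 recorded run), and lost its call in 18 of 25 alternatives. Library weights called Ldb3, Opn4 (adjusted p of 0.00415), Hspa8, Galnt15, Msn, Cdh6, 4930485B16Rik and Serpina3n. None of the 20 genes with the smallest p changed sign in any alternative, and 7 of those not called were called in at least 1; of all 203 genes followed, 52 changed sign in at least 1. The fits without the many-zero libraries and without the highest-rod pool were added after seeing the data. The highest-rod pool is Opn4-Cre/GFP pool 4, so that fit is the same as leaving out pool 4 and is counted under both names. The interaction gave no call in any alternative. Same-numbered pools of the lines had deviations correlated at -0.05 to 0.05 and no library was most like its own number, so the numbers do not pair them; with the block, 519 genes were under 0.05 before adjustment against 423 without. Pools with few reads limit the low genes: a gene absent from a pool of 4134285 reads may still be present below detection.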
